A study of Mus musculus with 36 samples.

Results

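Npr3, Adra1d, Nox4 and Pde3a encode 2 receptors and 2 enzymes of vasoactive signalling, and H3K9ac at the start of each of the 4 genes was lower in knockout than in wild-type vascular smooth muscle cells. The largest differences were at Npr3 (15.7-fold lower) and at the start of Pde3a (10.8-fold lower), both with an FDR under 0.05. Those at Nox4 (1.99-fold, FDR 0.0539) and Adra1d (1.93-fold, FDR 0.299) were smaller, all per the authors' deposited table. Of all 8115 listed H3K9ac peaks, 77.2% were lower in the knockout. Peaks were taken by gene symbol: every listed peak that the authors annotated to these genes, which gave 9 of the 13958 peaks listed for 3 histone marks. They comprise 5 of 8115 H3K9ac peaks, 1 of 5374 H3K9me3 peaks and 3 of 469 H3K4me3 peaks. The genes were selected on the knockout and wild-type values of these same tables, so their folds and p-values are a description and were not tested again. Their p-values reach up to 0.0424 (Adra1d), and no peak beyond the listing threshold of 0.05 is in the tables.

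The cells were primary aortic smooth muscle cells from mice with a whole-body knockout of CSE (cystathionine gamma-lyase, the product of Cth, which makes hydrogen sulfide) and from wild-type C57BL/6N mice. All were given 1 µM angiotensin II, a vasoconstrictor peptide, for 24 hours, so no untreated cells stand beside them. Chromatin immunoprecipitation with sequencing covered H3K9ac, H3K9me3 and H3K4me3 in 36 samples, which form 12 groups of 3 (knockout or wild type, each mark, immunoprecipitated or input chromatin). The labels do not say whether the 3 samples of a group came from separate animals or cultures, and give neither age nor sex.

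The values below are the authors' means per genotype. No value per library was analysed here, so the depth behind each mean is unknown and no SD can be given. Only peaks with a p below 0.05 are listed, and none with a p under 0.000101 (H3K9ac) or 0.00011 (H3K9me3). A peak of these or of other genes with a smaller p would not appear. Ranks and shares below therefore describe the listed peaks only. Cth had 0 listed peaks within 10 kb, and the knockout could not be checked at its own gene. Of 10 smooth muscle markers, 8 had a listed H3K9ac peak (7 lower, 1 higher in the knockout by the peak of smallest p, while 75.8% of all genes of the table were lower). Of the markers of other cells, 2 of 8 leukocyte genes (Cd14 and Aif1, both higher), 2 of 8 endothelial genes (1 higher, 1 lower), 2 of 6 fibroblast genes (1 higher, 1 lower) and 1 of 5 adipocyte genes (lower) had such a peak. At Cd14 the authors' deposited table gives a log2 signal of 10.34 in the knockout, against 9.50 in the wild type (FDR 0.231). The tables list differing peaks only and hold no level for the other markers, and the part of other cells in the results below was not tested.

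Vascular tone rests on messengers that these proteins make, clear or answer. Natriuretic peptides relax vessels through receptors that produce cGMP, while the product of Npr3, the clearance receptor, has no cyclase domain and removes the peptides from the circulation. The alpha-1D adrenergic receptor (Adra1d) couples to Gq, raises calcium and contracts large arteries. Nox4 is an NADPH oxidase that releases mainly hydrogen peroxide, and Pde3a is a phosphodiesterase that hydrolyses cAMP and is inhibited by cGMP. H3K9ac and H3K4me3 are found at active promoters, and H3K9me3 marks heterochromatin.

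Promoter sequences of Npr3 and Nox4 are shown because the H3K9ac differences at these genes lie over their start sites. RefSeq promoter windows of assembly GRCm38.p6 matched Npr3 and Nox4, and Adra1d and Pde3a had no entry. Each is the 250 bases before a RefSeq start of the gene, 5′ to 3′ on the strand of the gene, with CG dinucleotides in capitals. Both windows lie inside the RefSeq bounds of their gene. The Npr3 window is chr15:11907372-11907621 on the minus strand and the Nox4 window chr7:87246399-87246648 on the plus strand.
Npr3: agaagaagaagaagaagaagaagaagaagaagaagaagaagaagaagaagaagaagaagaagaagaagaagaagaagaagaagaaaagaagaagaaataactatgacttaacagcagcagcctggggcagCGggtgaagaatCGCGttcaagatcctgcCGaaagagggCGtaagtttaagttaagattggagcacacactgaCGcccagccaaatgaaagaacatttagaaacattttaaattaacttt
Nox4: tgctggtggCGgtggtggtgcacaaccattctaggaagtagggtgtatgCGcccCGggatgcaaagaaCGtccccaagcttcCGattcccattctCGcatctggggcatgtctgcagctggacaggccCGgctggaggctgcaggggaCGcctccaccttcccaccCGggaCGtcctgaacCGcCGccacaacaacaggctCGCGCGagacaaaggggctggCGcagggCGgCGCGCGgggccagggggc
The Npr3 window holds, near its 5′ end, 27 AAG units in a row (81 bases) and is 38.8% G and C, with 6 CG dinucleotides. A run of 4 AAG units, on either strand, was found in 0.110% of all 32851 windows. The AAG unit was taken from the Npr3 window itself, so this share is a description only. The Nox4 window is 67.2% G and C, more than 86.5% of the windows, and holds 20 CG dinucleotides. Of the motifs searched on both strands, TGACG (in 17.8% of windows) occurred 1 time at Npr3 and GGGCGG (in 32.7%) 1 time at Nox4. TATAAA (12.4% of windows) and the CArG box (1.47%) were found in neither, and the letters alone say nothing of binding.

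Npr3, on chromosome 15, had the largest difference of the 4 genes. Its H3K9ac peak had a log2 mean signal of 6.03 in the knockout, against 10.01 in the wild type, per the authors' deposited table. That is 65.3 normalised reads in the knockout against 1031 in the wild type, with a log2 fold change of −3.97 (p 0.000111, FDR 0.00673) per the authors' deposited table. The peak (chr15:11903660-11907557) reached from 1918 bases before to 1979 bases after the start of the transcript the authors used. The RefSeq start that follows the Npr3 window lies 1732 bases further upstream, while the RefSeq gene reaches to position 11907837, beyond the peak. The peak covered 186 of the 250 bases printed above. The uncovered bases are at the 5′ end of that window and hold most of the AAG run. By fold it ranked 14th of 6265 listed lower H3K9ac peaks. Among the 182 listed peaks with at least its mean signal it ranked 1st, and the next was Cdh11, a cadherin, at 3.43-fold lower per the authors' deposited table. The H3K9ac list starts at a p of 0.000101, close to the p of Npr3. Both ranks thus leave out any stronger peak cut off there, and the place of Npr3 among all peaks is unknown.

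A listed H3K4me3 peak (chr15:11903781-11905598) lay wholly inside the Npr3 H3K9ac peak, covering 46.6% of it. It began 41 bases after the authors' start site and touched 0 bases of the RefSeq window. The H3K4me3 table has no signal, fold or direction for any peak, so only the position is known. No listed peak of any mark lay within 100 kb of Npr3 besides these, and no H3K9me3 peak was listed within 200 kb. On chromosome 15, 86.7% of 488 listed H3K9ac peaks were lower in the knockout.

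Adra1d, on chromosome 2, was lower by a smaller amount. The H3K9ac peak at its start had a log2 signal of 7.47 in the knockout and 8.42 in the wild type, per the authors' deposited table. The log2 fold change of −0.95 had a p of 0.0424 and an FDR of 0.299 per the authors' deposited table, so it is listed by unadjusted p only. The peak (chr2:131561672-131563283) ran from 1000 bases before to 611 bases after the annotated start. A listed H3K4me3 peak (chr2:131561249-131562794) overlapped it by 1123 bases, or 72.6% of the H3K4me3 and 69.7% of the H3K9ac peak. Another pair of H3K9ac peaks lay inside Adra1d but was annotated to the predicted gene Gm14285, and so falls outside the selection by symbol. Their annotation names an intron of the Adra1d transcript. The first (chr2:131547944-131548431) had a log2 signal of 4.75 in the knockout and 5.66 in the wild type (p 0.0371), and the second (chr2:131548609-131549342) 5.05 in the knockout and 6.05 in the wild type (p 0.0185), per the authors' deposited table. All 3 H3K9ac peaks at or within the gene were thus lower in the knockout, on a chromosome where 71.3% of 599 listed H3K9ac peaks were.

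**Figure D1:**
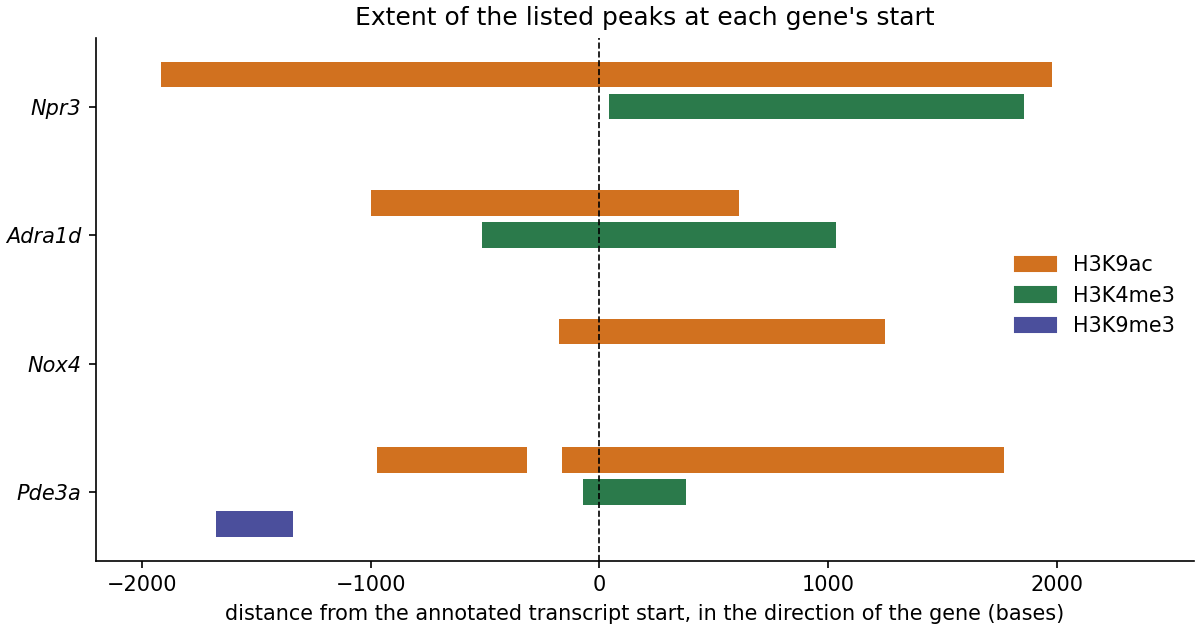
Extent of every listed H3K9ac, H3K4me3 and H3K9me3 peak of the 4 genes, in bases from the annotated transcript start (dashed line; negative is upstream). An H3K9ac bar crosses the start at all 4 genes, an H3K4me3 bar overlaps that H3K9ac bar at 3 (at Npr3 without reaching the start), and the only H3K9me3 bar lies at positions −1674 to −1342 of Pde3a.

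Nox4, on chromosome 7, had a fold close to that of Adra1d. Its H3K9ac peak had a log2 signal of 7.46 in the knockout and 8.45 in the wild type, per the authors' deposited table. The log2 fold change was −0.99 with a p of 0.00221 and an FDR of 0.0539 per the authors' deposited table, just above an FDR of 0.05. The peak (chr7:87245920-87247343) began 176 bases before the annotated start and ended 1247 bases after it, and covered all 250 bases of the window printed above. The RefSeq start that follows this window lies 553 bases downstream of the authors' start. Nox4 had no listed H3K4me3 peak. The nearest other listed peak was an H3K9me3 peak 16.5 kb beyond the gene (chr7:87415210-87415941), annotated to Tyr, the tyrosinase gene, with a log2 signal of 4.84 in the knockout and 2.24 in the wild type (p 0.0168, FDR 1) per the authors' deposited table. Of the listed peaks on chromosome 7, 91.3% of 634 H3K9ac peaks and 26.6% of 199 H3K9me3 peaks were lower in the knockout.

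Pde3a, on chromosome 6, had listed promoter peaks of all 3 marks. The H3K9ac peak over its start (chr6:141249107-141251036) had a log2 signal of 5.29 in the knockout, against 8.72 in the wild type, per the authors' deposited table. That is 39.1 normalised reads in the knockout against 421.7 in the wild type, with a log2 fold change of −3.43 (p 0.000906, FDR 0.0299) per the authors' deposited table. A smaller H3K9ac peak upstream (chr6:141248297-141248951), which spans positions −972 to −318 from the start, had a log2 signal of 3.66 in the knockout and 6.00 in the wild type (p 0.0262, FDR 0.233) per the authors' deposited table. The fold was 5.06 at the upstream peak and 10.8 at the start, and the difference between the folds was not tested. By lower fold the start peak ranked 4th of the 640 listed H3K9ac peaks with at least its mean signal, while the same rank was 155th of 557 for Adra1d and 128th of 543 for Nox4. As at Npr3, these ranks hold within the list only. A listed H3K4me3 peak (chr6:141249198-141249646) lay wholly within the start peak and covered 23.3% of it.

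H3K9me3 was lower at Pde3a as well, at a site of low signal. The peak (chr6:141247595-141247927) lay 369 bases upstream of the nearer H3K9ac peak and overlapped none of the other peaks of Pde3a. It had 1.57 normalised reads in the knockout and 14.4 in the wild type, a 9.19-fold lower value with a p of 0.00743 and an FDR of 1 per the authors' deposited table. Another 4 listed H3K9me3 peaks lay within 200 kb of the gene, annotated to Slco1c1, Slco1b2 and Gm7384, and all 4 were lower in the knockout, by 6.28-fold to 6.96-fold per the authors' deposited table. Each of the 5 also had an FDR of 1 there. Of the 445 listed H3K9me3 peaks on chromosome 6, 72.4% were lower in the knockout, against 39.0% of all 5374. The chromosome also held 88 of the 469 listed H3K4me3 peaks. Of 550 listed H3K9ac peaks on it 84.0% were lower. What chromosome 6 contributes to the values at Pde3a was not tested.

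Read together, all 5 H3K9ac peaks of the genes were lower in the knockout, as were 77.2% of the listed H3K9ac peaks. Those at Npr3 and at the start of Pde3a had an FDR under 0.05, a level that 12.6% of listed peaks reached on the lower side. The genes were selected on this contrast, so nothing is read from these shares. Scaled to peak length, wild-type signal at the 4 start peaks spanned a narrow range and knockout signal a wide one. Npr3 had 16.8 normalised reads per kb in the knockout and 264.5 in the wild type, and the Pde3a start peak 20.3 in the knockout and 218.5 in the wild type, per kb from the authors' deposited table. Adra1d had 110.0 reads per kb in the knockout and 212.5 in the wild type, and Nox4 123.6 in the knockout and 245.6 in the wild type, per kb from the authors' deposited table. In the knockout the order was thus Nox4, Adra1d, Pde3a and Npr3, and in the wild type Npr3, Nox4, Pde3a and Adra1d. Whether neighbours in either order differ could not be tested without values per library.

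**Figure D2:**
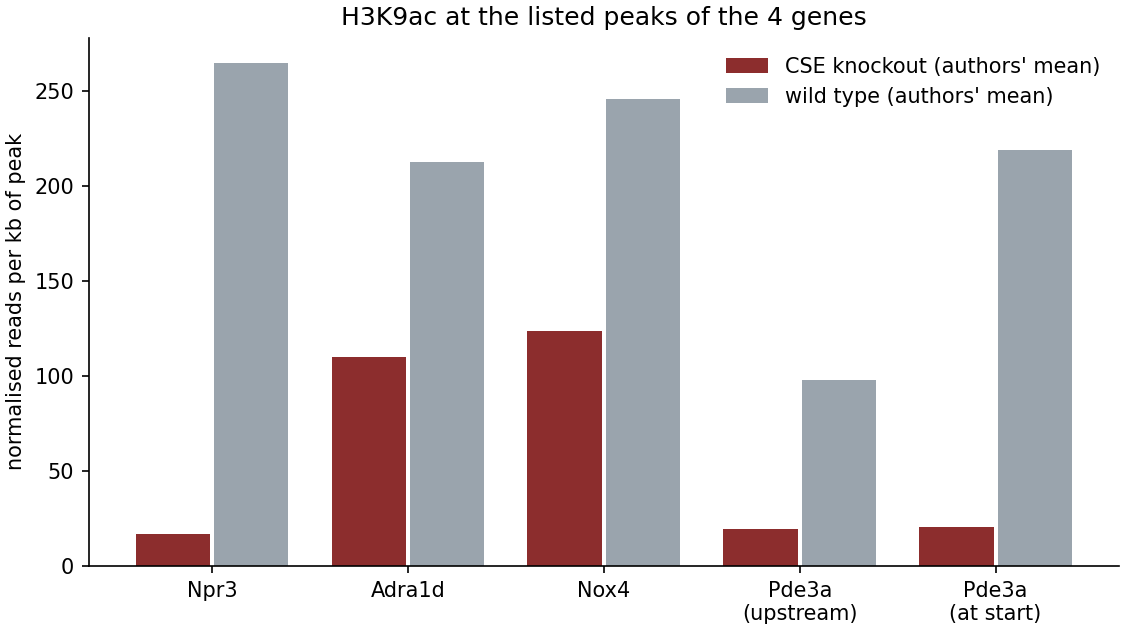
H3K9ac in normalised reads per kb of peak at the 5 listed peaks of the 4 genes, as the authors' mean over knockout (dark red) and wild-type libraries (grey), with no error bars because no value per library was analysed. Knockout bars stand at 16.8 to 20.3 for Npr3 and Pde3a and at 110.0 to 123.6 for Adra1d and Nox4.

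Promoter peaks of other genes with a like pair of genotype signals lay close to Adra1d and Nox4 and farther from Pde3a and Npr3. Likeness was the distance between log2 knockout and log2 wild-type signals to 2998 H3K9ac promoter peaks of other named genes. It used these 2 group means only. The nearest to Npr3 were Nhs (1.14 log2 units away), Tmem117 (1.27) and Igf2bp1 (1.44), computed from the authors' deposited table. For the Pde3a start peak they were Kit (0.45), Kank1 (0.61) and Sgcd (0.62), and for its upstream peak Plxnc1, Tcf3 and Arhgef26 at 0.13 to 0.24, by the same measure. Adra1d had its 3 neighbours at 0.010 to 0.028 log2 units and Nox4 at 0.010 to 0.041, Dmpk and Mapkapk3 for both, with Sema3g for Adra1d and Slc25a13 for Nox4. Among a smaller pool of 322 H3K9me3 promoter peaks the nearest to Pde3a were Rerg, Ighv1-30 and Nasp-ps1, at 0.16 to 0.17.

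**Figure D3:**
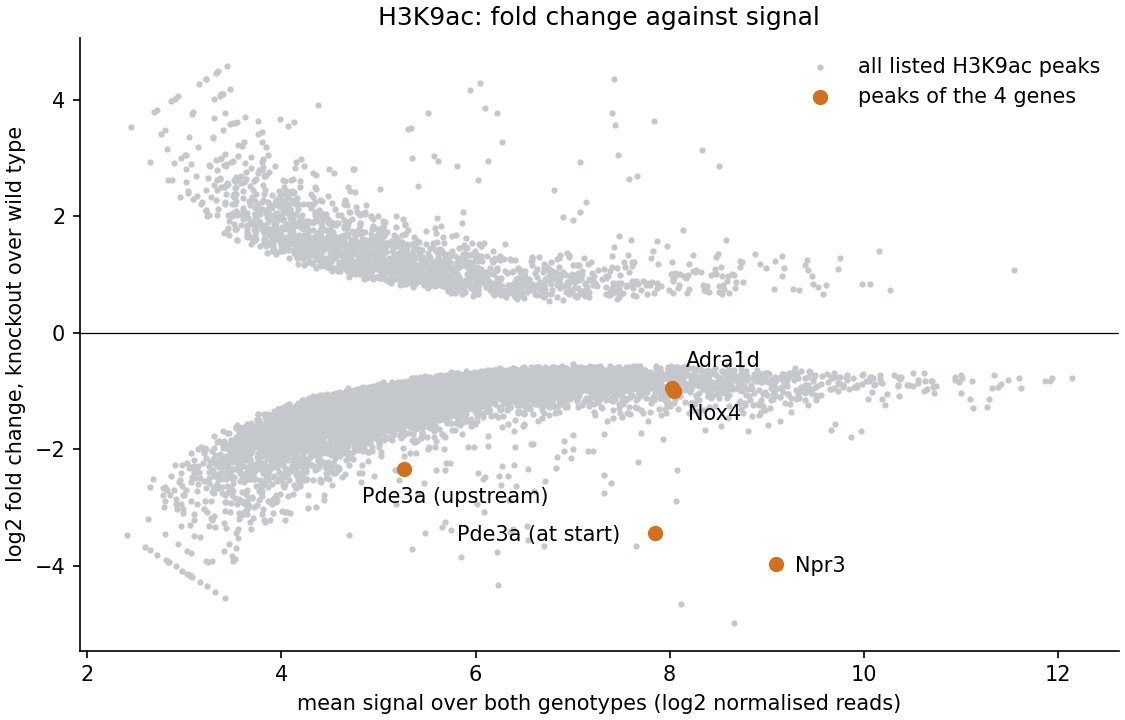
Log2 fold change, knockout over wild type, against the mean log2 signal over both genotypes for all 8115 listed H3K9ac peaks (grey) and the 5 peaks of the 4 genes (orange). Npr3 at −3.97 and the Pde3a start peak at −3.43 lie below most peaks of like signal, while Adra1d and Nox4 at −0.95 and −0.99 lie within it.

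In the H3K4me3 table, 3 of the 4 genes had a promoter peak. Of 3051 genes with a listed H3K9ac promoter peak, 99 (3.24%) also had one of H3K4me3. Npr3, Adra1d and Pde3a are among these 99, and their selection with this known makes the comparison a description. Promoter peaks of all 3 marks were listed for 3 genes in the series: Pde3a, Rtn1 and Epb41l3. Rtn1 (5.58-fold, FDR 0.0843) and Epb41l3 (11.5-fold, FDR 0.00879) had lower H3K9ac per the authors' deposited table, like Pde3a. The Epb41l3 H3K9ac peak was short (226 bases) and weak, with 1.88 normalised reads in the knockout and 21.6 in the wild type. H3K9me3 at Rtn1 and Epb41l3 was higher in the knockout. At Rtn1 its log2 signal was 4.76 in the knockout against 0.22 in the wild type (FDR 0.68) per the authors' deposited table. At Epb41l3 it was 3.28 in the knockout against −0.45, the lowest wild-type value, per the authors' deposited table. No listed H3K9me3 peak of any gene, Pde3a included, had an FDR under 0.05 there. In Rtn1 and Epb41l3 the H3K9ac and H3K9me3 peaks lay at different starts of the gene.

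The wider pathways were read from 9 lists of signalling genes (243 genes), with each gene taken at its peak of smallest p. Of these genes 75 had a listed H3K9ac peak, 61 lower and 14 higher in the knockout, with a median log2 fold change of −1.16 over the 75. Over all 5911 genes of the table the median was −1.01, and 75.8% were lower. At an FDR under 0.05, 22 of the 75 list genes were lower and 3 higher, beside 929 lower (15.7%) and 295 higher (4.99%) of all 5911 genes. The list counts include Npr3, Adra1d, Nox4 and Pde3a, which were selected on this contrast, with Npr3 and Pde3a among the 22. These counts are thus a description only.

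Around Npr3, 7 of 23 genes of the natriuretic peptide and cGMP list had a listed H3K9ac peak, 6 lower and 1 higher, and 5 of the lower ones, Npr3 included, had an FDR under 0.05, against 15.7% of all genes of the table. Vasp, an actin regulator phosphorylated by cGMP-dependent kinase, was 5.90-fold lower (FDR 0.00808) at a peak 2 to 3 kb from a start. That peak had 6.15 normalised reads in the knockout. A second Vasp peak, within 1 kb of a start, was 2.16-fold lower (FDR 0.157), both per the authors' deposited table. Ide, an insulin-degrading protease that also cleaves natriuretic peptides, was 2.60-fold lower (FDR 0.0107) and Gucy1a2, a subunit of soluble guanylyl cyclase, 2.50-fold lower (FDR 0.0383) per the authors' deposited table. The median over the 7 genes was −1.32 on the log2 scale. Gucy1a2 also had an intronic H3K9me3 peak, with a log2 signal of 5.50 in the knockout and 3.50 in the wild type (FDR 1) per the authors' deposited table. The H3K9me3 peaks annotated to Prkg1, the cGMP-dependent kinase of smooth muscle, and to Nos1, a nitric oxide synthase, were also higher in the knockout (all at an FDR of 1) per the authors' deposited table. Those of Prkg1 lay in its introns with the wild type at the lowest level of the table, and 2 of the 3 annotated to Nos1 lay in introns of a neighbouring gene. Of all genes with a listed H3K9me3 peak, 60.4% were higher by the peak of smallest p.

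Around Adra1d, 12 of 34 genes of the adrenergic receptor and G protein list were listed for H3K9ac, 10 lower and 2 higher, while 75.8% of all genes were lower. Of the 12, 0 had an FDR under 0.05 per the authors' deposited table, against 15.7% lower and 4.99% higher of all genes. All 12 had the unadjusted p under 0.05 that listing requires. Rgs4, which shortens Gq signals, was 1.95-fold lower (p 0.00342) and Gna11, a Gq-class alpha subunit, 2.64-fold lower at its promoter (p 0.0184) per the authors' deposited table. The beta-3 receptor gene Adrb3 was 2.23-fold lower (p 0.0125) there, per the authors' deposited table. Plcb3, a phospholipase C that Gq activates, was 1.88-fold higher (p 0.00950) per the authors' deposited table and, with Adra1d and Gnas, was 1 of 3 list genes with an H3K4me3 peak. Adra1a, the other listed alpha-1 receptor gene, had an intronic H3K9me3 peak only, with the knockout at the lowest level of the table (p 0.0327, FDR 1 per the authors' deposited table). The median over the 12 genes was −0.96 on the log2 scale.

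Around Nox4, 2 of 21 genes of the NADPH oxidase list were listed for H3K9ac, both lower: Nox4 itself and Duoxa1, a maturation factor of another oxidase, which was 1.71-fold lower (p 0.0412, FDR 0.295) per the authors' deposited table. Of all genes with a listed H3K9ac peak, 75.8% were lower. Nox3, an oxidase of the inner ear, had an H3K9me3 peak in intergenic DNA, with the knockout at the lowest level of the table (p 0.0188, FDR 1 per the authors' deposited table).

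Around Pde3a, 13 of 24 phosphodiesterase genes were listed for H3K9ac, 8 lower and 5 higher, and at an FDR under 0.05 there were 4 lower, Pde3a included, and 2 higher, against 15.7% lower and 4.99% higher of all genes. Pde2a, a cGMP-stimulated enzyme, was 4.32-fold lower (FDR 0.0266) and Pde9a, which is specific for cGMP, 2.51-fold lower (FDR 0.0302) per the authors' deposited table. Pde7b, specific for cAMP, was 2.22-fold lower (FDR 0.0701) per the authors' deposited table. Pde3b, the paralogue of Pde3a, was singled out after its values were seen: its promoter peak had a log2 signal of 8.77 in the knockout and 7.01 in the wild type (p 0.0494, FDR 0.323) per the authors' deposited table, the opposite direction to Pde3a. Pde4d and Pde6h, the higher genes with an FDR under 0.05 and likewise chosen after their values were seen, had intronic H3K9ac peaks 7.94-fold and 2.99-fold higher per the authors' deposited table, and each also had a lower peak elsewhere. For H3K9me3, 7 of the 24 genes were listed, 4 higher and 3 lower, none with an FDR below 1, and by smallest p 60.4% of all genes of that table were higher. Besides Pde3a the only phosphodiesterase with a listed H3K9me3 promoter peak was Pde10a, higher in the knockout with the wild type at the lowest level (p 0.0166 per the authors' deposited table).

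**Figure D4:**
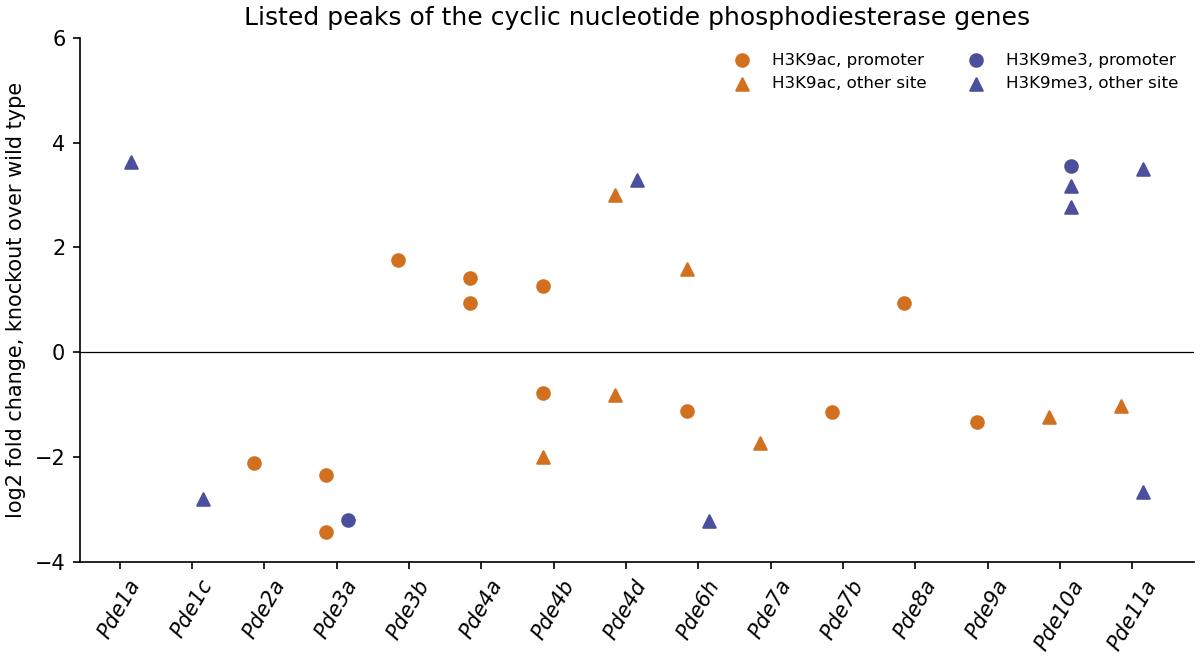
Log2 fold change, knockout over wild type, of every listed H3K9ac (orange) and H3K9me3 (blue) peak of the cyclic nucleotide phosphodiesterase genes, with circles for promoter peaks and triangles for other sites. The 3 peaks of Pde3a lie between −3.43 and −2.34, and the H3K9ac peak of Pde3b lies at 1.76.

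Other signalling lists held the remaining genes. Their counts stand beside 75.8% lower of all genes with a listed H3K9ac peak, by the peak of smallest p. Among adenylyl cyclases and cAMP effectors, 11 of 25 were listed for H3K9ac, 9 lower and 2 higher. Akap12 and Prkar2a, an anchoring protein and a regulatory subunit of protein kinase A, were lower, with log2 signals of 3.27 in the knockout and 5.27 in the wild type at Akap12 (FDR 0.0121) and of 3.72 in the knockout and 5.51 in the wild type at Prkar2a (FDR 0.0156), per the authors' deposited table. Akap5, another anchoring protein, was 2.51-fold higher at its promoter (FDR 0.0422) and 1.84-fold lower at a second peak (FDR 0.106) per the authors' deposited table. Of 52 other vasoactive receptors and ligands 14 were listed, 12 lower and 2 higher, with the prostaglandin F receptor gene Ptgfr 9.25-fold lower (FDR 0.00706, log2 signal 1.69 in the knockout against 4.90 in the wild type) and the serotonin receptor gene Htr1b 3.10-fold lower (FDR 0.0484) per the authors' deposited table. Of 42 genes of calcium handling and contractile signalling 13 were listed, 12 lower and 1 higher. Calm3, a calmodulin gene, was 2.22-fold (FDR 0.0110) and Cacnb3, a calcium channel subunit, 3.36-fold lower (FDR 0.0113) per the authors' deposited table. In the angiotensin list Lnpep, an aminopeptidase gene, had an intronic peak that was higher in the knockout (FDR 0.0782), and in the endothelin list Ece2 alone of 8 genes was listed, lower in the knockout (FDR 0.0597), per the authors' deposited table. None of the receptor genes Agtr1a, Agtr1b, Ednra and Ednrb was listed for H3K9ac.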

How the data were processed

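The genes, lists and tests were chosen with earlier results of these data known. CASAVA 1.4 and mm9 appear in the submitters' processing notes. The sources used here give no aligner, peak caller, normalisation or name of the differential test. The lower bound of the authors' transcript equals that of RefSeq GRCm38.p6 at Npr3 and Pde3a, while the upper bounds differ. Of peaks annotated within 1 kb of a start, 877 of 2260 (38.8%) for H3K9ac, 110 of 338 (32.5%) for H3K9me3 and 272 of 381 (71.4%) for H3K4me3 lay within 1 kb of a RefSeq GRCm38.p6 start. Coordinates are read as GRCm38, which no header or label states, and the overlaps with RefSeq windows rest on this reading.

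Per the file headers, the authors deposited the log2 mean normalised reads per peak (all, knockout and wild type), its log2 fold change, p-value and FDR for H3K9ac and H3K9me3. For H3K4me3 the authors deposited positions and distances to start sites only. The fold change equalled knockout minus wild type within 0.01. Promoter means an annotation within 3 kb of a start.

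With no value per library, no test was run and planned per-sample tests were not made; p-values and FDRs are the authors', and depth is unknown. Reads are 2 to the power of the deposited log2 value, and reads per kb divide this by peak length. Genes named are the 4 with every peak, up to 4 per list and mark by smallest p (promoter first), the 3 nearest in signal, and genes with a peak near the 4. Tables were handled in Python 3.11.15 with pandas 2.3.3, numpy 2.4.6 and matplotlib 3.10.9. Alternatives were a stricter p, an FDR of 0.05, promoter peaks, selection by position, signal above the lowest level, a fold minimum and other windows. A result of the angiotensin list is not reported here.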

Additional observations from a re-analysis of the deposited data

How the results depend on the processing

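The 5 H3K9ac peaks of the 4 genes that were lower in the knockout became 3 with p under 0.01 (Npr3, Nox4 and the Pde3a start), 2 with an FDR under 0.05 (Npr3 and the Pde3a start) and 3 with a log2 fold change of at least 1 (Npr3 and both Pde3a peaks). They were 7 when taken by position, with the intronic pair in Adra1d, and stayed 5 with promoter peaks or with signals above the lowest level. The single H3K9me3 peak at Pde3a went to 0 at an FDR under 0.05 per the authors' deposited table (1 at an unadjusted p under 0.05) and stayed 1 under the other alternatives. Other listed peaks near the genes numbered 4 within 100 kb or 50 kb and 12 within 200 kb. Of 75 listed signalling genes, 61 were lower in H3K9ac. They became 48 of 56 with promoter peaks, 39 with p under 0.01 and 22 with an FDR under 0.05. Over all genes, 4478 of 5911 were lower, 2383 of 3051 with promoter peaks and 929 of 5911 with an FDR under 0.05. The count over all genes at p under 0.01 is not given here. No paired analysis was possible because the tables hold only group means, which also precluded leaving out a replicate, another normalisation and any check of depth.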
